A study of Mus musculus with 12 samples.

Results

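The genes described are 9 of the MHC class II pathway, out of 19935 genes measured on 12 whole-transcript arrays of mouse bone marrow cells. They were chosen by name, as genes with a probe set that carries only their own symbol, and each of the 9 is measured by 1 probe set. The set holds H2-Aa, H2-Ab1 and H2-Eb1 (chains of the class II molecule), Cd74 (the invariant chain), H2-DMa (a chain of the peptide exchange factor), H2-Oa and H2-Ob (the chains of the inhibitor of that factor), Ctss (a protease) and Ciita (the transactivator of the pathway). The cells came from male C57BL/6J mice of 10 to 12 weeks, and cells bearing CD71, the transferrin receptor abundant on red cell precursors, were enriched from hind leg marrow with magnetic beads. The 4 genotypes compared, with 3 mice in each, were wild type (WT), CD70 transgenic (CD70TG), interferon-gamma deficient (Ifng-/-) and transgenic on the deficient background (CD70TG*Ifng-/-). CD70 is the ligand of CD27 on lymphocytes. For the CD70TG group the labels name clone F13, so that the transgene effect was read in 1 line, and they do not name the promoter that drives the transgene.

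Class II molecules present peptides from endocytosed protein to CD4+ T cells. Their alpha and beta chains assemble on the invariant chain, which cathepsin S and other proteases degrade in endosomes until a last fragment is left in the groove. The exchange factor H2-DM removes that fragment and H2-O restrains H2-DM. Transcription is set by Ciita, which has no DNA contact of its own and joins the factors of the RFX complex, CREB and NF-Y on the X and Y boxes of these promoters. B cells, dendritic cells and macrophages carry class II, and interferon-gamma induces Ciita and class II in many other cells.

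The promoters show what these genes share in sequence. For 6 of the 9 genes a RefSeq promoter window was used (GRCm38.p6, 250 bases before to 50 bases after the annotated start). H2-Ab1, Cd74 and Ciita were not searched. The stretches below hold the X box core letters GCAAC and the Y box letters TGATTGG, in capitals. They run from -100 to -31 relative to the start. H2-Aa lies at chr17:34287854-34287923 on the minus strand, H2-Eb1 at chr17:34305767-34305836, H2-Oa at chr17:34092279-34092348 and H2-Ob at chr17:34238805-34238874, the last 3 on the plus strand.
H2-Aa: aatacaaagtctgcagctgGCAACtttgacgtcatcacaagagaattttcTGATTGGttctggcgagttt
H2-Eb1: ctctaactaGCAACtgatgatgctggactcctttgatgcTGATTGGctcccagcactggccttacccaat
H2-Oa: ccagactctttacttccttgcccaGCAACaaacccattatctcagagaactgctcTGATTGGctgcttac
H2-Ob: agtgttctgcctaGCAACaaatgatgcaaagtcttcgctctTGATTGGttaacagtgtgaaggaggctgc
In the gene's orientation, 26 bases lay between the pair of motifs in H2-Aa and in H2-Oa, 25 in H2-Eb1 and 23 in H2-Ob. Searched on both strands, GCAAC was present in 35.2% of 32851 windows of the same length, TGATTGG in 7.82%, and GCAAC followed by TGATTGG at 20 to 30 bases in 34 windows, or 0.103%. The letters and the spacing were chosen with these promoters in view, so the share is a description. H2-DMa, with 2 windows, held GCAAC only on the opposite strand of one of them and TGATTGG in neither.

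The Ctss stretch is shown because its upstream letters differ from those of the chains. It spans chr3:95526726-95526785 on the plus strand, from -60 to -1, with GAAA, 2 bases and GAAA in capitals, the core letters of an interferon-stimulated response element.
Ctss: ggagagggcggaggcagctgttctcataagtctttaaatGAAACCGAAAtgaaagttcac
That pattern was present in 3.44% of the windows on either strand. GCAAC and TGATTGG were not in the Ctss window.

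The values are log2 expression with each probe set's median over the 12 arrays set to 0, so a value of 1 is 2-fold above the gene's own middle level and levels of different genes cannot be compared. Array medians ran from -0.02 to 0.03. The rounding steps of the deposited values place a probe set at 8 or above on the original log2 scale in all 12 arrays for 15.1% of probe sets. H2-Aa was the only one of the 9 genes in that upper class, which held 9 of 9 measured red cell precursor markers, 1 of 19 monocyte and macrophage markers (Lyz2) and 0 of 14 B cell markers. The probe set for Ifng showed no difference between Ifng-/- and WT beyond the spread (-0.10 ± 0.09 SE, limma adjusted p = 0.632), and for the Cd70 probe set CD70TG minus WT was 0.26 ± 0.12 (adjusted p = 0.180). Neither probe set was known to lie in the altered part of its gene, so neither checks the labels.

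The class II chains rose in transgenic mice that had interferon-gamma and were lower in transgenic mice without it. CD70TG mice exceeded WT mice by 2.18-fold for H2-Aa, 2.80-fold for H2-Ab1 and 2.58-fold for H2-Eb1. The call for H2-Aa was lost in 13 of 21 alternative analyses. In CD70TG*Ifng-/- mice the 3 chains were 5.62-fold, 5.96-fold and 4.16-fold below CD70TG, in the same order. Without the transgene, loss of Ifng made no difference that passed the test.

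H2-Ab1, the beta chain of I-A, read -0.74, -0.35 and 0.38 in WT mice 1, 2 and 3. It read 0.52, 1.45 and 1.79 in the CD70TG mice. Values of -0.04, 0.11 and 0.04 came from the Ifng-/- mice, and of -1.20, -1.64 and -1.13 from the CD70TG*Ifng-/- mice. Every CD70TG mouse lay above every mouse of the other groups, and every CD70TG*Ifng-/- mouse lay below them. CD70TG minus WT was 1.49 ± 0.29 (SE, n = 3 mice against 3; adjusted p = 0.00566 in limma over all 19935 genes). CD70TG*Ifng-/- minus Ifng-/- was -1.36 ± 0.29 (adjusted p = 0.0179 in limma), which did not pass under quantile normalization (-0.88, adjusted p = 0.104), and CD70TG*Ifng-/- minus CD70TG was -2.57 ± 0.29 (adjusted p = 0.000232).

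H2-Aa, the alpha chain of I-A, read -0.69, -0.28 and 0.59 in WT and 0.21, 1.18 and 1.60 in CD70TG. Without Ifng it read -0.03, 0.03 and 0.04 in non-transgenic mice, and -1.48, -2.00 and -1.01 in transgenic ones. CD70TG and WT overlapped through WT mouse 3 and CD70TG mouse 1, and the CD70TG*Ifng-/- mice were apart from all others. CD70TG minus WT was 1.12 ± 0.34 (adjusted p = 0.0482 in limma), just inside the threshold of 0.05. It was 0.91 (adjusted p = 0.103) after quantile normalization, 0.95 (0.126) when arrays were centred within level classes and 0.84 (0.206) without WT mouse 1. The call was lost in 13 of 21 alternatives. CD70TG*Ifng-/- minus Ifng-/- was -1.51 ± 0.34 (adjusted p = 0.0277), a call that ended under quantile normalization at -1.01 (adjusted p = 0.143).

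H2-Eb1, the beta chain of I-E, read -0.59, -0.32 and 0.47 in WT and 0.48, 1.44 and 1.74 in CD70TG. The Ifng-/- mice had -0.13, 0.13 and 0.27, and the CD70TG*Ifng-/- mice had -0.74, -1.22 and -0.55. WT mouse 3 and CD70TG mouse 1 were nearly level, and the CD70TG*Ifng-/- mice overlapped with WT. The rise from WT to CD70TG was 1.37 ± 0.30 (adjusted p = 0.0108 in limma), and it did not pass without WT mouse 1 (1.15, adjusted p = 0.0628) or without CD70TG mouse 2 (1.25, 0.0517). Between CD70TG*Ifng-/- and Ifng-/- the difference was -0.93 ± 0.30, with a 95% interval from -1.56 to -0.29 and an adjusted p of 0.164. H2-Ea, which would encode the partner chain, is defective in C57BL/6 mice.

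**Figure D1:**
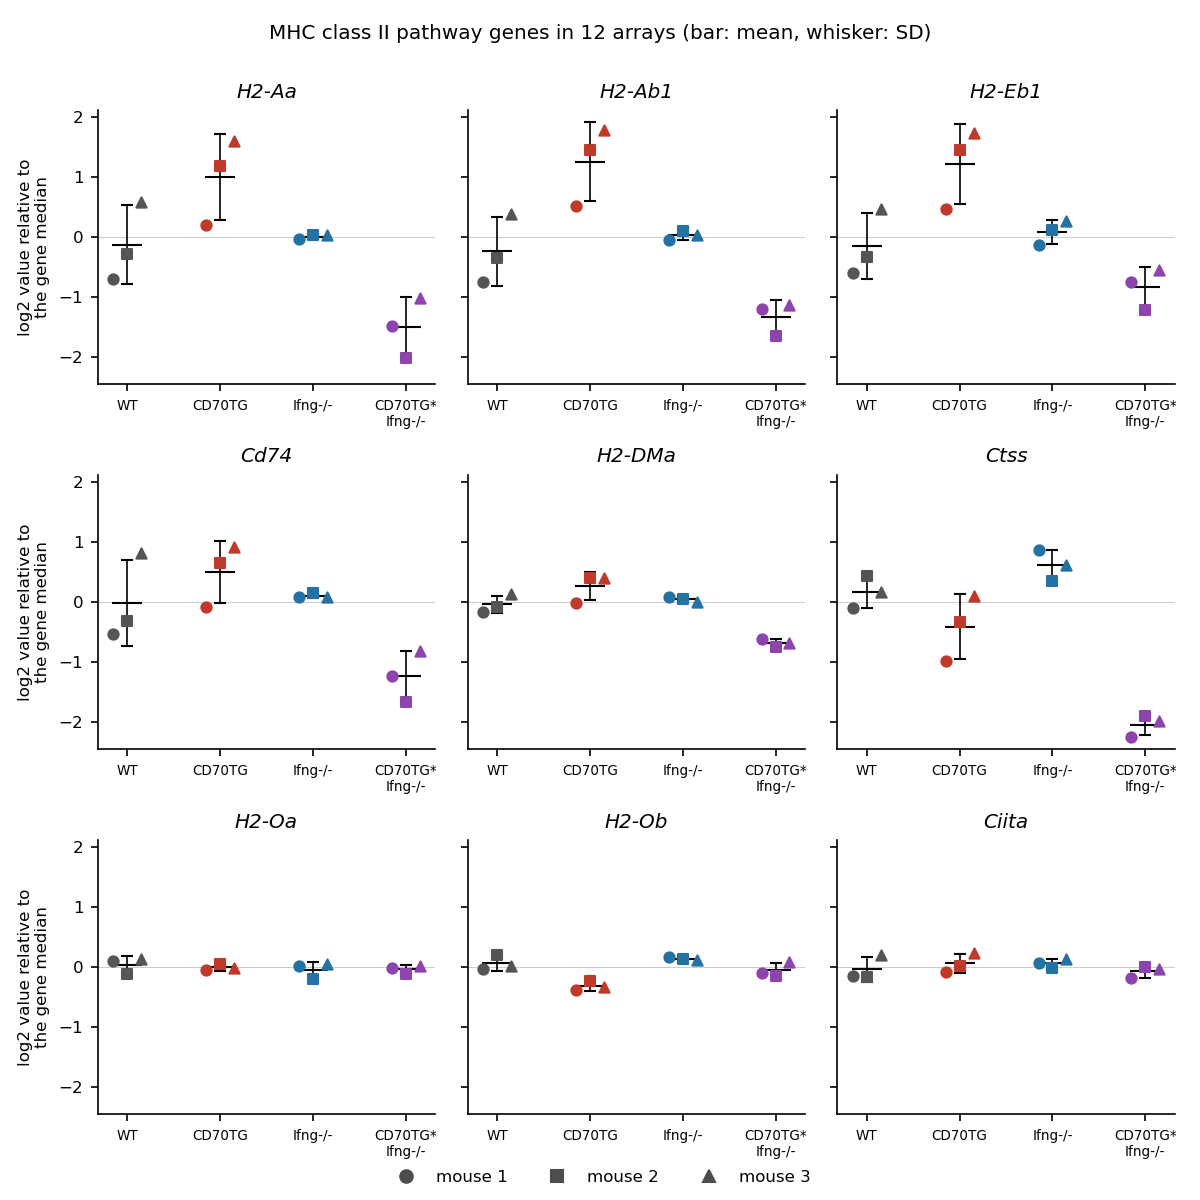
Log2 value relative to the gene's median over 12 arrays (vertical axis) for each of the 9 genes in the 4 genotypes; each symbol is 1 mouse, the bar is the mean and the whisker the SD of 3 mice. The 3 chains are highest in CD70TG and lowest in CD70TG*Ifng-/-, Ctss is highest in Ifng-/- (mean 0.61) and lowest in CD70TG*Ifng-/- (mean -2.04), and H2-Oa and Ciita stay between -0.19 and 0.24 in all mice.

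Cd74, the invariant chain, followed the chains in its fall without Ifng but not in a rise that passed the test. It read -0.53, -0.32 and 0.81 in WT and -0.08, 0.66 and 0.92 in CD70TG. Values of 0.08, 0.15 and 0.08 came from the Ifng-/- mice, and of -1.23, -1.66 and -0.81 from the CD70TG*Ifng-/- mice. WT and CD70TG overlapped over most of their range, and all CD70TG*Ifng-/- mice lay below every other mouse. CD70TG minus WT was 0.51 ± 0.31, with a 95% interval from -0.15 to 1.17 (adjusted p = 0.314 in limma). WT mouse 3 weighed on it, since without that mouse the difference was 0.92 (adjusted p = 0.0473). It passed in 1 of 20 alternatives, over which it ran from 0.25 to 0.92 (limma adjusted p up to 0.705). Cd74 in CD70TG*Ifng-/- was 3.32-fold below CD70TG (adjusted p = 0.00902) and 2.52-fold below Ifng-/- (adjusted p = 0.0316). Both calls ended under quantile normalization, at log2 differences of -1.24 (adjusted p = 0.0695) and -0.91 (0.172).

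H2-DMa encodes the alpha chain of the exchange factor H2-DM. It read -0.15, -0.09 and 0.13 in WT and -0.01, 0.40 and 0.40 in CD70TG. Without Ifng it read 0.09, 0.05 and 0.01 in non-transgenic mice, and -0.62, -0.75 and -0.68 in transgenic ones. The CD70TG*Ifng-/- mice were close together and clear of all other mice. H2-DMa was 1.93-fold lower in them than in CD70TG (-0.95 ± 0.11, adjusted p = 0.000248 in limma), 1.66-fold lower than in Ifng-/- (-0.73 ± 0.11, 0.000935) and 1.56-fold lower than in WT (-0.64 ± 0.11, 0.00480). These 3 calls held under every alternative run. CD70TG minus WT was 0.30 ± 0.11 (adjusted p = 0.0868), and it passed without CD70TG mouse 1 (0.44, adjusted p = 0.0165). That was 1 of 20 alternatives, over which it ran from 0.23 to 0.44.

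Ctss, cathepsin S, differed from the chains in that it was not raised in CD70TG. It read -0.10, 0.44 and 0.17 in WT and -0.98, -0.34 and 0.10 in CD70TG. The Ifng-/- mice had 0.86, 0.35 and 0.62, and the CD70TG*Ifng-/- mice had -2.24, -1.90 and -1.97. The last group lay far below the rest without overlap. Ctss in CD70TG*Ifng-/- was 6.28-fold below Ifng-/- (-2.65 ± 0.22, adjusted p = 4.29e-06 in limma), 3.10-fold below CD70TG (adjusted p = 0.000829) and 4.61-fold below WT (4.80e-05). These calls held under every alternative run. Between CD70TG and WT the difference was -0.57 ± 0.22 (adjusted p = 0.110), and without CD70TG mouse 3 it was -0.83 (adjusted p = 0.0189). It passed in 2 of 20 alternatives, over which it ran from -0.83 to -0.29. CD70TG lay 2.03-fold below Ifng-/- (adjusted p = 0.0155), a call that ended when only those groups entered the fit (adjusted p = 0.0919).

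The chains of the H2-DM inhibitor did not follow the classical chains, although their promoters hold the same letters. H2-Ob fell in CD70TG, with WT values of -0.03, 0.21 and 0.03 and CD70TG values of -0.38, -0.23 and -0.33. Values of 0.17, 0.14 and 0.12 came from the Ifng-/- mice, and of -0.10, -0.15 and 0.09 from the CD70TG*Ifng-/- mice. Every CD70TG mouse was below every other mouse. The difference from WT was -0.38 ± 0.08 (adjusted p = 0.0113 in limma), which did not pass without CD70TG mouse 1 (-0.35, adjusted p = 0.0566), and that from Ifng-/- was -0.45 ± 0.08 (adjusted p = 0.00543). Between CD70TG*Ifng-/- and CD70TG the difference was 0.26 ± 0.08 (adjusted p = 0.196). H2-Oa read between -0.19 and 0.14 in all 12 mice, and no comparison between groups passed the test. Its difference between CD70TG and WT was -0.05 ± 0.09, with a 95% interval from -0.23 to 0.14. That interval leaves out the rises measured for the 3 chains. The H2-Oa probe set was below 8 on the original log2 scale in at least 1 array, as were those of H2-Ab1 and H2-Eb1. Whether the H2-Oa probe set would register such a rise was not tested. H2-O is most abundant in B cells. B cell markers, given below, fell beside H2-Ob, while H2-Oa did not pass the test, and a link between them was not tested.

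Ciita, the transactivator, did not pass the test in any comparison. It read -0.14, -0.17 and 0.21 in WT and -0.07, 0.03 and 0.24 in CD70TG. Without Ifng it read 0.07, -0.01 and 0.14 in non-transgenic mice, and -0.18, 0.01 and -0.03 in transgenic ones. All 4 groups overlapped. CD70TG minus WT was 0.10 ± 0.11 with a 95% interval from -0.13 to 0.33 (adjusted p = 0.600 in limma), and between CD70TG*Ifng-/- and CD70TG it was -0.13 ± 0.11 with an interval from -0.36 to 0.10 (adjusted p = 0.683). Like those of H2-Ab1, H2-Eb1, H2-DMa, Cd74 and Ctss, the Ciita probe set was below 8 on the original log2 scale in at least 1 array. Its values had a root mean square of 0.13 about 0. Whether it would register a change in the transcript was not tested. Which of the Ciita promoters its transcripts start from was not analysed here.

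Across the 9 genes, the comparison of CD70TG with WT called 3 higher, at a background of 8.23% of all genes tested, and 1 lower, at a background of 2.7%. The median difference of the 9 was 0.30, against -0.02 over all genes. CD70TG*Ifng-/- against Ifng-/- called 5 lower (background 2.35%) and none higher (background 0.156%), with a median of -0.93 against 0.04; at an unadjusted p under 0.05, limma gave 7 lower and 0 higher. CD70TG*Ifng-/- against CD70TG called 6 lower (background 0.988%) and none higher (0.426%), with a median of -1.63 against 0.02; H2-Ob alone was higher at an unadjusted p under 0.05. CD70TG*Ifng-/- against WT called 2 lower (1.34%), H2-DMa and Ctss. CD70TG against Ifng-/- called 3 in either direction (3.25%): H2-Ab1 was higher (1.22, and 0.92 with an adjusted p of 0.0802 under quantile normalization), and Ctss and H2-Ob were lower. Ifng-/- against WT called 0 of 9 in limma, with 0 also at an unadjusted p under 0.05, and 1 of all genes (0.00502%).

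Groups did not overlap for 3 of the 9 genes between CD70TG and WT (31.1% of all genes), for 7 between CD70TG*Ifng-/- and Ifng-/- (16.4%) and for 7 between CD70TG*Ifng-/- and CD70TG (17.6%). The first count is near the share among all genes. Comparisons that share a group share its mice, and CD70TG mouse 1 was the lowest CD70TG mouse for all 9 genes.

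The transgene effect itself differed with Ifng for 6 of the 9 genes. The difference between CD70TG and WT minus that between CD70TG*Ifng-/- and Ifng-/- was 2.85 ± 0.41 for H2-Ab1 (SE; adjusted p = 0.00468 in limma), 2.63 ± 0.48 for H2-Aa (0.0180) and 2.29 ± 0.42 for H2-Eb1 (0.0180). It was 2.08 ± 0.31 for Ctss (adjusted p = 0.00536), 1.85 ± 0.44 for Cd74 (0.0463) and 1.03 ± 0.15 for H2-DMa (0.00520). All 6 were higher (background 1.61%), none was lower (0.281%; 0 at an unadjusted p under 0.05), and the median of the 9 was 1.85 against -0.04 over all genes. For Ctss both transgene differences were below 0, at -0.57 with Ifng, which did not pass the test, and at -2.65 without it. The call for Cd74 was lost in 13 of 19 alternatives, with adjusted p up to 0.140. For H2-Oa (-0.06 ± 0.12), H2-Ob (-0.19 ± 0.12) and Ciita (0.23 ± 0.15) the term did not pass. The term was not particular to class II genes. It was called higher for 8 of 9 class I genes (median 1.17) and 6 of 19 monocyte and macrophage markers (median 0.60), lists described below. Over 19 alternatives these counts ran from 6 to 8 and from 0 to 12. As for Ctss, both transgene differences were below 0 for all 19 of those markers.

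**Figure D2:**
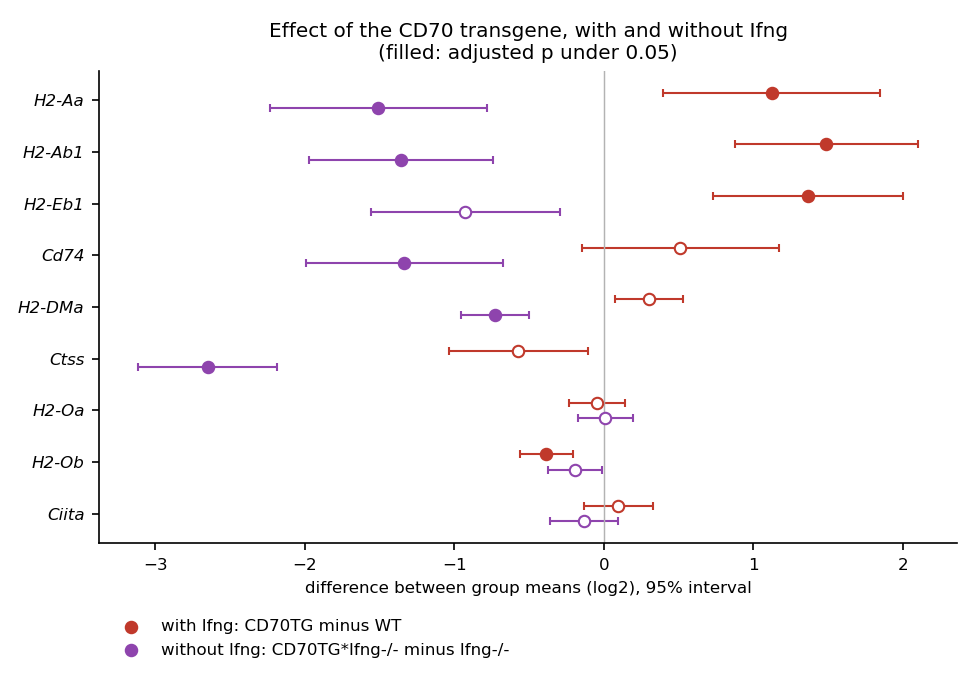
Difference between group means (log2, horizontal axis) for CD70TG minus WT and for CD70TG*Ifng-/- minus Ifng-/-, with 95% intervals from limma, for each of the 9 genes; filled points have an adjusted p under 0.05. H2-Aa, H2-Ab1 and H2-Eb1 lie above 0 with Ifng and below 0 without it, while both Ctss points lie below 0 at -0.57 and -2.65.

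In both transgenic comparisons, the other genes of class II presentation that passed the test were lower, and none was called higher. Ifi30 alone was higher in CD70TG than in WT at an unadjusted p under 0.05 (0.28 ± 0.10, adjusted p = 0.0925 in limma). It was lower in CD70TG*Ifng-/- than in CD70TG (-0.39 ± 0.10, adjusted p = 0.0902), so both differences had the direction of the chains without passing. Of 13 measured, 3 fell in CD70TG against WT (median -0.13, background 2.7%). These were Lgmn, a lysosomal protease that trims the invariant chain (-1.16 ± 0.18), Cst3, a secreted cathepsin inhibitor (-0.64 ± 0.18), and Marchf1, a ubiquitin ligase that lowers surface class II (-0.39 ± 0.08). Against Ifng-/-, CD70TG*Ifng-/- showed 7 falls (background 2.35%). These were Lgmn (-1.68 ± 0.18), Cst3 (-1.50 ± 0.18), the cathepsin genes Ctsh (-1.32 ± 0.20), Ctsz (-1.03 ± 0.15), Ctsd (-0.88 ± 0.12) and Ctsl (-0.68 ± 0.16), and Marchf1 (-0.33 ± 0.08). The call for Cst3 in CD70TG ended in 7 of 21 alternatives and, in CD70TG*Ifng-/- against Ifng-/-, those for Ctsl in 6 of 20 and Marchf1 in 12 of 20. Ctsz alone passed in CD70TG*Ifng-/- against CD70TG (-0.70 ± 0.15, adjusted p = 0.0358; lost in 9 of 21 alternatives), a comparison in which the 3 chains and Ctss all passed, and at an unadjusted p under 0.05 limma gave 3 of the 13 lower and 1 higher, Marchf1 (0.24). H2-DMb1 and H2-DMb2 share 1 probe set and were not counted.

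Of 13 genes that set transcription at class II promoters, 2 were called higher in CD70TG than in WT (background 8.23%). These were Nfya (0.30 ± 0.09, adjusted p = 0.0389 in limma) and Rfxap (0.23 ± 0.07, 0.0479), subunits of NF-Y and of the RFX complex. WT was the low group for both. Nfya lay above WT by 0.22 in Ifng-/- and 0.18 in CD70TG*Ifng-/-, and Rfxap by 0.22 in each, differences that did not pass. Both calls ended under quantile normalization, and Nfya was lost in 11 of 21 alternatives and Rfxap in 15 of 20. Irf8, a factor of monocytes, dendritic cells and B cells, alone fell in CD70TG*Ifng-/- against Ifng-/- (-0.74 ± 0.15, adjusted p = 0.0136). Spi1, the myeloid and B cell factor PU.1, read -0.28 ± 0.19 between CD70TG and WT (adjusted p = 0.353). No gene of this list passed in CD70TG*Ifng-/- against CD70TG in limma, where 2 passed at an unadjusted p under 0.05.

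Of 8 genes on the route from interferon-gamma to Ciita, only Irf1, a factor that interferon-gamma induces and that acts on the Ciita gene, rose in CD70TG (0.77 ± 0.13, adjusted p = 0.00284). Irf1 in CD70TG*Ifng-/- was 2.02-fold below CD70TG (adjusted p = 0.000756), and its transgene effect differed with Ifng (0.91 ± 0.19, adjusted p = 0.0265; lost in 6 of 19 alternatives). The receptor genes Ifngr1 (-0.93 ± 0.19; lost in 4 of 20 alternatives) and Ifngr2 (-0.79 ± 0.19; lost in 9 of 20 alternatives) fell in CD70TG*Ifng-/- against Ifng-/-. Of 7 genes for costimulation and its inhibition, Cd274, which encodes the inhibitory ligand PD-L1, rose in CD70TG (0.86 ± 0.13), while Cd86 (-1.04 ± 0.14), a ligand of CD28, and Cd83 (-0.37 ± 0.08), a protein that stabilises surface class II, fell. Cd274 fell in CD70TG*Ifng-/- against CD70TG (-0.89 ± 0.13).

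**Figure D3:**
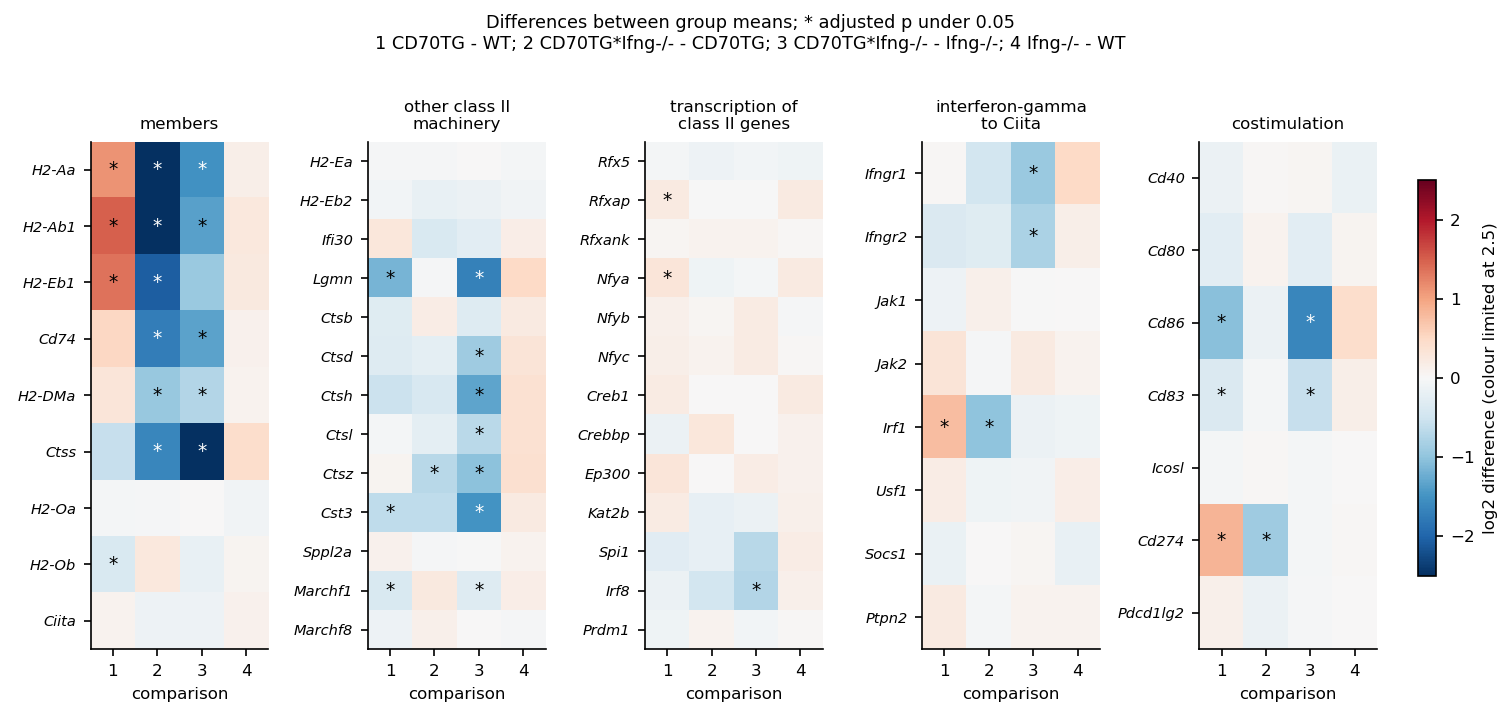
Log2 differences between group means, as colour limited at 2.5, for the 9 genes and 4 lists of related genes (rows) in 4 comparisons (columns); a star marks an adjusted p under 0.05 in limma. Stars in both the first and the second column with opposite colours stand at H2-Aa, H2-Ab1, H2-Eb1, Irf1 and Cd274, and those of Lgmn, Cst3, Marchf1, Cd86 and Cd83 in columns 1 and 3 are at falls.

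Class I presentation, the pathway that shows cytosolic peptides to CD8+ T cells, is shown for comparison by 9 measured genes. All 9 rose in CD70TG against WT (median 0.95, background 8.23%). All 9 were lower in CD70TG*Ifng-/- than in CD70TG (median -1.33, background 0.988%). The largest rises were in H2-Q4, a class Ib heavy chain (2.37 ± 0.16), Tap1, a subunit of the peptide transporter (1.65 ± 0.15), and Psmb9, an immunoproteasome subunit (1.59 ± 0.13). Nlrc5, the class I counterpart of Ciita, rose by 0.70 ± 0.11 (adjusted p = 0.00136), whereas the Ciita difference was 0.10 ± 0.11; the pair was not tested against each other. CD70TG*Ifng-/- against Ifng-/- called 1 class I gene lower, B2m (-0.87 ± 0.18, adjusted p = 0.0132; lost in 4 of 21 alternatives), beside 5 of the 9 class II genes; the difference between the lists was not tested. In the CD70TG mice the class I mean ran from 0.97 to 1.25, and the mean of the 3 class II chains from 0.40 to 1.71.

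Markers of the cells that carry class II differed between the groups as well, and not always in the direction of the chains. In bulk RNA, fewer cells of a type and less RNA per cell cannot be told apart. Of 19 monocyte and macrophage markers, 16 fell in CD70TG against WT (median -1.66, background 2.7%) and 16 in CD70TG*Ifng-/- against Ifng-/- (median -2.63, background 2.35%). Their mean per array was 0.67 to 1.21 in WT, 0.87 to 1.46 in Ifng-/-, -0.86 to -0.55 in CD70TG and -1.12 to -1.11 in CD70TG*Ifng-/-. CD70TG minus WT was -2.93 ± 0.19 for Mrc1, the mannose receptor, and -2.78 ± 0.18 for Vcam1, an adhesion molecule of marrow macrophages. So the chains rose in CD70TG while the macrophage markers were lower, and both were lowest in CD70TG*Ifng-/-. Between those 2 transgenic groups, where the chains differed by -2.06 to -2.57, 3 of 19 markers passed, C1qc (-0.94 ± 0.14), Vcam1 (-1.11 ± 0.18) and C1qb (-1.01 ± 0.19), and the list's median was -0.47. The background for a lower call there was 0.988%. Over 20 alternatives the count of markers ran from 0 to 7.

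Of 14 B cell markers, 11 fell in CD70TG (median -0.67, background 2.7%), led by Cd79a, a subunit of the B cell receptor (-1.53 ± 0.15). H2-Ob fell beside them, and H2-Oa did not pass the test (-0.05 ± 0.09). The mean of the 14 markers per array was 0.10 to 0.42 in WT, -0.47 to -0.37 in CD70TG, 0.01 to 0.33 in Ifng-/- and -0.14 to -0.04 in CD70TG*Ifng-/-. Cd79a (0.99 ± 0.15) and Ms4a1, which encodes CD20 (0.69 ± 0.16; lost in 12 of 20 alternatives), were higher in CD70TG*Ifng-/- than CD70TG, the direction opposite to that of the chains. Of 11 dendritic cell markers 1 fell in CD70TG, Cd209a (-0.40 ± 0.11; lost in 6 of 20 alternatives), and their means per array lay between -0.09 and 0.09. Of 8 T cell markers Cd4 alone passed in CD70TG against WT (-0.52 ± 0.09), and of 9 red cell precursor markers Alas2, the first enzyme of haem synthesis in these cells (-0.43 ± 0.08). The part of any of these cell types in the class II values was not tested.

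**Figure D4:**
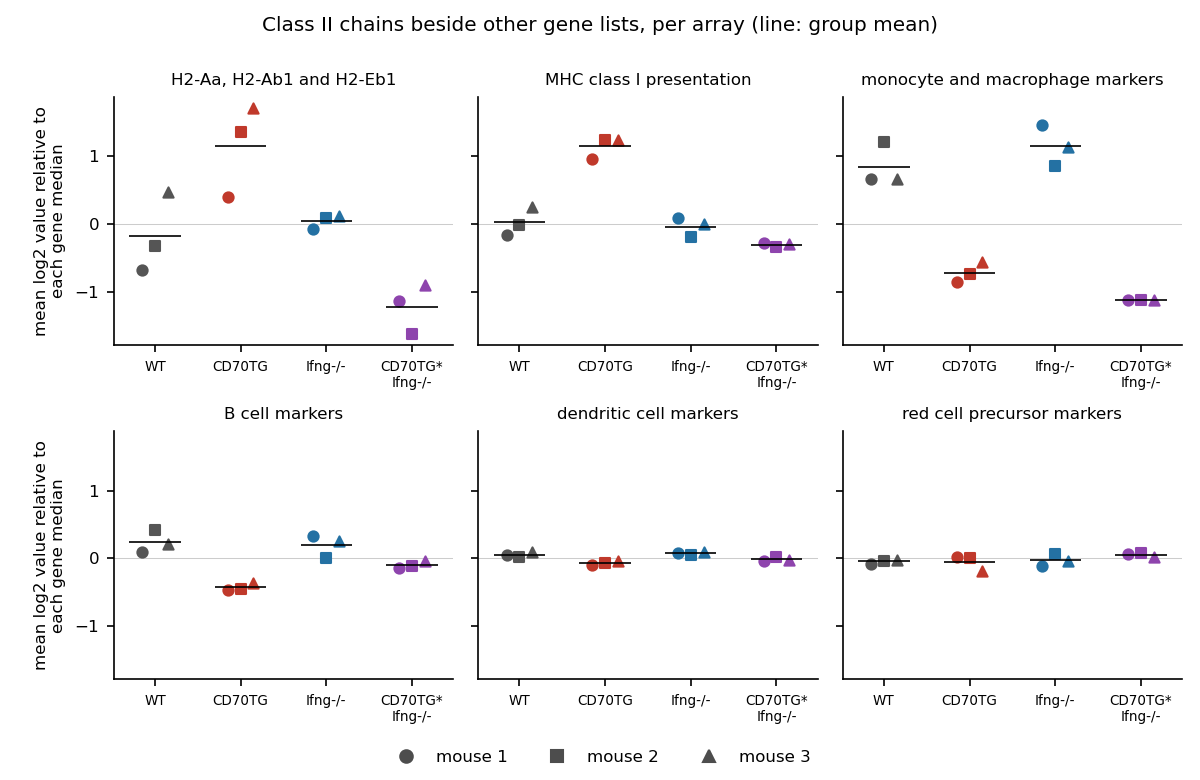
Mean log2 value relative to each gene's median (vertical axis) over the genes of 6 lists, 1 symbol per mouse and a line at the group mean. The 3 chains and class I genes are highest in CD70TG, the macrophage markers are below 0 in both transgenic groups, and the dendritic cell and red cell precursor means stay between -0.18 and 0.09.

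The chains also resembled each other mouse by mouse. Over the 12 arrays the root mean square difference was 0.20 between H2-Aa and H2-Ab1, 0.26 between H2-Ab1 and H2-Eb1 and 0.37 between H2-Aa and H2-Eb1. From Cd74 it was 0.31 to H2-Aa, 0.42 to H2-Ab1 and 0.44 to H2-Eb1, against 0.90 to 1.11 between a chain and Ctss. In WT, mouse 3 was highest and mouse 1 lowest for the 3 chains, Cd74 and H2-DMa, and in CD70TG*Ifng-/- mouse 2 was lowest for the same 5 genes. For all the genes except Ctss and H2-Oa, the Ifng-/- mice had the smallest range of the 4 groups. These ranges ran from 0.046 for H2-Ob to 0.40 for H2-Eb1. The Ifng-/- range was 0.51 for Ctss, against 0.34 in CD70TG*Ifng-/-, and 0.23 for H2-Oa, against 0.11 in CD70TG. These likenesses are between values of the same 12 RNA samples.

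The genes whose values lay nearest to the mean of the 3 chains, by root mean square difference over the 12 arrays, were B2m (0.42), Rtp4 (0.42), Gbp8 (0.48), Gbp7 (0.48), Irgm1 (0.51), Oasl2 (0.53), Fcgr4 (0.55) and Lap3 (0.55). The chains' own root mean square about 0 was 0.93. Nearest to Cd74 were Fcgr4 (0.41), Rtp4 (0.42), Irgm1 (0.45), B2m (0.46), Ifitm3 (0.46), Casp1 (0.47), Lap3 (0.48) and App (0.48). Nearest to Ctss were Ctsc (0.21), Mpeg1 (0.22), Ly86 (0.24), Fcer1g (0.38), Laptm5 (0.42), Hexa (0.46), C1qb (0.46) and Unc93b1 (0.50), with a root mean square of 1.12 for Ctss itself. The 8 genes nearest to Ciita, led by Tnfsf9 (0.05), are a poor guide, because the Ciita values were themselves within a root mean square of 0.13 of 0.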

How the data were processed

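Log2 expression values were deposited by the authors as 1 table of 28815 probe sets on 12 arrays; per the submitters' processing notes RMA was used, and their centring and log base are not stated there. Each probe set's median over the arrays is 0, and values ran from -3.25 to 6.70. Probe sets with 1 symbol in the platform annotation (21780; 1605 had several and 5430 none) were averaged to 19935 genes, 998 from several probe sets. limma 3.58.1 in R 4.3.3 fitted 4 group means (8 residual degrees of freedom), two-sided, with Benjamini-Hochberg adjustment over all genes and a threshold of 0.05. The interaction is the transgene effect with Ifng minus that without. The fit was tested on simulated data. The number of arrays limits the precision. Each p-value sets a difference against 1 spread between mice, pooled over the 4 groups and moderated across genes (6.23 prior degrees of freedom). That spread can differ from a group's own, as for H2-Aa, with an SD of 0.039 in Ifng-/- and 0.66 in WT.

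The 9 genes and all lists were chosen with earlier results of these data known. Named were the 9 genes, Irf1, Nlrc5, Spi1, up to 4 genes with the smallest p per list and comparison, and the 8 nearest genes; further genes that passed were named after their values were seen. H2-K1, H2-D1 and other listed genes without a probe set of their own were not analysed here, and no Cd74 promoter was used. Promoters came from RefSeq windows of GRCm38.p6, motif letters were searched on both strands. Alternatives were quantile normalization, centring by array or level class, robust variance moderation, a replicate block, the most variable probe set, the upper level class alone, fits of 2 groups, and left-out mice.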

Additional observations from a re-analysis of the deposited data

Results flagged for a closer look

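For 6 of the 9 genes the effect of the transgene differed between mice with and without Ifng by the limma interaction test. On the log2 scale the difference was 2.63 for H2-Aa, 2.85 for H2-Ab1, 2.29 for H2-Eb1, 1.03 for H2-DMa, 1.85 for Cd74 and 2.08 for Ctss. H2-Ab1, H2-DMa and Ctss kept the call under every alternative run, with adjusted p up to 0.0300 in limma. H2-Aa lost it in 5 of 20 alternatives, H2-Eb1 in 5 of 19 and Cd74 in 13 of 19.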

How the results depend on the processing

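Of 26 calls for the 9 genes over the comparisons, 14 held under every alternative. The number of the 9 genes called in CD70TG*Ifng-/- against Ifng-/- was 5, and 2 under quantile normalization and under robust moderation of the variance. In CD70TG*Ifng-/- against WT it was 2, and 5 with the replicate block, with only those groups in the fit, and without CD70TG mouse 3 and Ifng-/- mouse 2. Calls over all genes in that comparison were 357, and 908 with only those groups and 907 without those mice. In CD70TG against Ifng-/- the number of the 9 genes was 3, and 1 with robust moderation and with only those groups in the fit. The latter fit called 398 of all genes, against 647. For the interaction the number of the 9 genes was 6, and 3 with robust moderation. Leaving out 1 mouse at a time gave 2 to 5 calls in CD70TG against WT, 2 to 5 in CD70TG*Ifng-/- against Ifng-/-, 5 to 6 in CD70TG*Ifng-/- against CD70TG, 2 to 5 in CD70TG*Ifng-/- against WT, 1 to 5 in CD70TG against Ifng-/- and 3 to 6 for the interaction.

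The lowest interaction count came without WT mouse 1, CD70TG mouse 2 or CD70TG*Ifng-/- mouse 2, and the lowest count in CD70TG against WT without WT mouse 1 or CD70TG mouse 2. In CD70TG*Ifng-/- against Ifng-/- the count was 2 without Ifng-/- mouse 3 or CD70TG*Ifng-/- mouse 2. The cause was not tested.

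Small differences changed sign. H2-Oa in CD70TG*Ifng-/- against Ifng-/- (0.01) read -0.025 under quantile normalization, -0.0099 with arrays centred on the median, -0.013 with centring within level classes and -0.062 without CD70TG mouse 3 and Ifng-/- mouse 2. With those mice left out H2-Oa read -0.025 in CD70TG against Ifng-/- and 0.022 for the interaction. With 1 mouse left out H2-Oa ran from -0.13 to 0.0021 in CD70TG against WT, from -0.062 to 0.055 in CD70TG*Ifng-/- against Ifng-/-, from -0.058 to 0.0061 in CD70TG*Ifng-/- against CD70TG, from -0.030 to 0.086 in CD70TG against Ifng-/- and from -0.14 to 0.016 for the interaction. In Ifng-/- against WT, H2-Aa ran from -0.15 to 0.50 and Cd74 from -0.14 to 0.53. Ciita ran from -0.10 to 0.085 in CD70TG*Ifng-/- against WT and from -0.088 to 0.065 in CD70TG against Ifng-/-.

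Over all genes, same-numbered mice did not deviate together (correlations from -0.40 to 0.31). For H2-Aa and H2-Eb1, however, mouse 3 was the highest in each of the 4 groups. For the 3 chains mouse 1 was the lowest in WT, CD70TG and Ifng-/-. Whether the numbers mark mice handled together cannot be told from these values. With the replicate block H2-Eb1 passed in CD70TG*Ifng-/- against Ifng-/- (adjusted p = 0.0462 in limma) and in CD70TG against Ifng-/- (0.0114), and the interaction called 128 of all genes, against 377. Over all genes, CD70TG against WT called 2179 and 853 to 2721 with 1 mouse left out, CD70TG*Ifng-/- against Ifng-/- 499 and 297 to 868, CD70TG*Ifng-/- against CD70TG 282 and 136 to 365, CD70TG*Ifng-/- against WT 357 and 171 to 653, CD70TG against Ifng-/- 647 and 442 to 1043, Ifng-/- against WT 1 and 1 to 42, and the interaction 377 and 82 to 711. Without CD70TG mouse 3 and Ifng-/- mouse 2 these were 3686, 1048, 212, 907, 1476, 4 and 175, in that order. The upper level class alone held only H2-Aa of the 9 genes.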

Other observations

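The probe set shared by H2-DMb1 and H2-DMb2, the beta chains of H2-DM, entered no comparison. The WT mice had -0.01, -0.03 and 0.08, and the CD70TG mice had -0.61, 0.15 and 0.35. The Ifng-/- mice had 0.20, 0.01 and 0.16, and the CD70TG*Ifng-/- mice had -0.46, -0.50 and -0.13. CD70TG mouse 1 was the lowest of the 12 mice and CD70TG mouse 3 the highest, so the group spanned the whole range.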
